A study of Mus musculus with 32 samples.

Results

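The proteasome subunits and regulators were taken as every gene name made of Psm, a letter from a to g and a number, with a mean of at least 1 CPM (count scaled to the library's total) over the libraries. The count table held 57010 entries, of which 48 had such a name and 46 passed the level. The 46 genes comprised 7 alpha and 7 constitutive beta subunits of the 20S core, 3 immunoproteasome beta subunits, 6 ATPases and 11 non-ATPase subunits of the 19S regulatory particle, 7 assembly chaperones, 4 activators and 1 inhibitor. The names left out were Psma8, the testis form of an alpha subunit, with a mean of 0.331 CPM, and Psmb11, the thymus beta subunit, with a mean of 0.146 CPM.

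The proteasome is the main protease for ubiquitin-tagged proteins in the cytosol and nucleus. Its barrel-shaped 20S core holds the cutting sites inside stacked rings of alpha and beta subunits, and the 19S particle at its ends recognises, unfolds and feeds in tagged proteins. In the brain it removes damaged, misfolded and short-lived regulatory proteins in neurons and glia, and interferon makes cells exchange the catalytic beta subunits for the immunoproteasome forms.

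RNA was sequenced from the brains of 32 mice that carried APOE3 (E3/3) or APOE4 (E4/4) on both alleles and received D4F, a peptide that mimics apolipoprotein A-I, or phosphate-buffered saline (PBS, the vehicle) daily for 12 weeks. Treatment began at an age of 10.5 months and brains were taken at 13.2 months. There were 4 females and 4 males in each combination of genotype and treatment, which gave 8 groups of 4 and 4 arms of 8. The strain, the way the alleles were made, the D4F dose and its route are not stated in the labels, and tissue homogenate mixes all cell types. Counts for mouse Apoe ranged from 32 to 101 per E3/3 library and from 38 to 141 per E4/4 library (0.932 to 3.43 CPM over all), so the genotype labels were not checked by that gene.

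Totals ran from 17.8 to 45.1 M counts per library, with 11 shallower (up to 23.6 M) and 21 deeper ones (from 28.95 M). E3/3 vehicle mice accounted for 6 of the 11, against 1 for E4/4 vehicle, 2 for E3/3 D4F and 2 for E4/4 D4F, which tied depth to group wherever E3/3 vehicle mice were compared. Library numbers were tied to genotype too, since every E4/4 library had a lower number than every E3/3 library. What the order of these numbers stands for is not stated. All 5 markers listed for each of 8 cell types were found. Summed marker levels ran from 4714 to 8256 CPM for neurons, from 3744 to 5775 CPM for oligodendrocytes, from 1651 to 3096 CPM for astrocytes, from 239 to 317 CPM for microglia and from 6.65 to 1367 CPM for choroid plexus. In such bulk tissue, fewer cells of a type and less RNA per cell cannot be told apart. A pair of E3/3 libraries had the largest 20S shifts of the 32. E3/3 male D4F replicate 1, with 17.996 M counts, was the highest of its arm for 30 of the 46 genes and had the lowest astrocyte sum, 1651 CPM. E3/3 female PBS replicate 1, with 22.8 M counts, was the highest of its arm for 22 of the 46. In each of them all 14 constitutive 20S genes lay above the median of the other libraries of the arm, by a median of 0.32 and 0.19 on the log2 scale. All 14 were also above it in E4/4 female PBS replicate 4 and E4/4 female D4F replicate 3, by smaller medians of 0.12 and 0.14. Calls that changed without the pair of E3/3 libraries are named with each comparison.

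Promoters were printed for 4 genes that differed between the genotypes of vehicle mice in opposite directions: Psme3 and Psmd11, lower in E4/4, and Psma3 and Psme4, higher in E4/4. Each sequence runs 5′ to 3′ from 250 bases before to 50 bases after the RefSeq start, in build GRCm38.p6. Capitals mark the letters searched, on either strand: CCGGAAG, a core of sites for ETS factors; CCAAT, a core of sites for NF-Y; TGACNNNGC, a core of the antioxidant response element; and the core of interferon response elements.
Psme3, chr11:101315963-101316262, + strand: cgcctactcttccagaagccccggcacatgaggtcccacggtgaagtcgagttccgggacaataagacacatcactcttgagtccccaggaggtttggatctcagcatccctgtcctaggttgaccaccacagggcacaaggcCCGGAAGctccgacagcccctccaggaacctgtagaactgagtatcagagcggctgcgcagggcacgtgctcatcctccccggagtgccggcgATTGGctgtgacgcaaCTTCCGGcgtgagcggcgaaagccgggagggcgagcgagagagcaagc
Psmd11, chr11:80428365-80428664, + strand: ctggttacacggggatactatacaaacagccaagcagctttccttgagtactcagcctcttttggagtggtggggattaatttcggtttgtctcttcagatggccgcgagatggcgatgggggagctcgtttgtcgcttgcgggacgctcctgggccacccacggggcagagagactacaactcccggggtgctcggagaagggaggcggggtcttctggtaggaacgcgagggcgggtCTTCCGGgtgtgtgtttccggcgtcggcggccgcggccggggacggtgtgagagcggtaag
Psma3, chr12:70974373-70974672, + strand: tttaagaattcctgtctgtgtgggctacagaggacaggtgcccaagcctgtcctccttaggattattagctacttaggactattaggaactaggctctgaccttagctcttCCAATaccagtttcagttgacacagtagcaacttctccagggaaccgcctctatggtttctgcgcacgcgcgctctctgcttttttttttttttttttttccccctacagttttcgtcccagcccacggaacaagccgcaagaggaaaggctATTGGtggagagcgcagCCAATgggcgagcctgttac
Psme4, chr11:30771525-30771824, + strand: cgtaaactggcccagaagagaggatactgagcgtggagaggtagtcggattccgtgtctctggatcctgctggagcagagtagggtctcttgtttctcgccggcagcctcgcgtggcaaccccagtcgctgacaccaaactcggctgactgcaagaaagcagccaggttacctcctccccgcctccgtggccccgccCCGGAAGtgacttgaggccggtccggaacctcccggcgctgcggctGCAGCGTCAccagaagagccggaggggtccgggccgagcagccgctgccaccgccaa
CCGGAAG occurred in the windows of Psme3, Psmd11 and Psme4, while that of Psma3 held CCAAT in 3 places. The window of Psme3 held CCAAT as well, from base -14 to base -10. Psme4 was the 1 of these genes with TGACNNNGC, which spanned its start from base -7 to base 2. Over the 39 genes with a promoter in the table (42 windows), CCGGAAG was found in 15 windows (35.7%), against 8.86% of all 32851 promoters of the same length. TGACNNNGC was found in 14.3% against 12.4%, CCAAT in 31% against 37.4% and the interferon response element core in 11.9% against 3.44%. The last was in 5 windows, those of Psmb3, Psmd4, Psmd9, Psme1 and Psmg4, none of them an immunoproteasome beta gene. By genotype difference, CCGGAAG was in 2 of 7 windows of the higher genes and in 4 of 6 of the lower genes. CCAAT was in 3 of 7 and in 3 of 6. These numbers are too small to compare, and the 10 lower genes had only 6 windows, so some of them were not searched. The windows differed in base composition as well, with 62.0% G and C in Psme3, 61.7% in Psmd11, 65.3% in Psme4 and 49.3% in Psma3.

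Per kilobase of principal transcript, the constitutive core and the 19S particle were the most abundant. Mean levels over the 32 libraries reached 128 CPM per kb for Psmc5, a 19S ATPase, and 123 CPM per kb for Psmb6, a catalytic beta subunit. The alpha genes spread from 26.1 CPM per kb for Psma3 to 90.9 CPM per kb for Psma7. Most of that gap came from the transcript lengths used, 2846 bases for Psma3 and 914 bases for Psma7. Before division by length, and scaled to the library total only, their means were 74.1 and 83.05 CPM. On that scale the 7 alpha genes ran from 51.4 CPM for Psma5 to 83.05 CPM for Psma7. Whether transcripts of these lengths were the ones present was not tested. The assembly chaperones lay lower, between 6.13 CPM per kb for Psmg3 and 13.3 CPM per kb for Psmg2. Activators ranged from 10.5 CPM per kb for Psme4 to 36.7 CPM per kb for Psme3, and the inhibitor Psmf1 stood at 9.61 CPM per kb. Scatter between mice of an arm differed between genes: the within-arm SD of log2 CPM was 0.0736 for the lid subunit Psmd12 and 0.0936 in the median non-ATPase gene, 0.17 for Psmb10, 0.187 for Psmb6 and 0.198 for Psmb4. It was largest for the low-count genes Psmb8 (0.35) and Psmb9 (0.41).

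**Figure D1:**
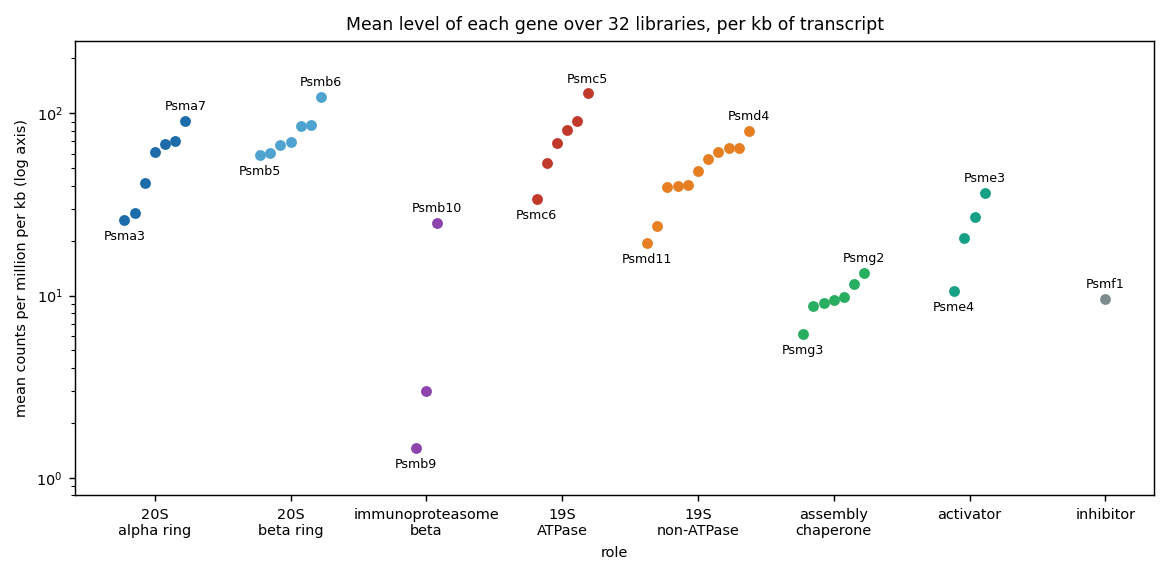
Mean level of each of the 46 genes over 32 libraries, in CPM per kilobase of principal transcript on a log axis, with 1 point per gene grouped by role and the lowest and highest gene of each role named. The immunoproteasome genes Psmb9 (1.45) and Psmb8 (2.99) sit below every other gene, and Psmc5 (128) and Psmb6 (123) sit highest.

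Of the catalytic genes of the immunoproteasome, Psmb8 and Psmb9 were far below their constitutive counterparts, and Psmb10 was below its own by less. Psmb8 replaces Psmb5, the chymotrypsin-like site, and it made up a median of 5.18% of the per-kb sum of that pair in E3/3 vehicle mice, 3.98% in E3/3 D4F, 4.93% in E4/4 vehicle and 4.34% in E4/4 D4F. Psmb9 replaces Psmb6, the caspase-like site, at medians of 1.03%, 0.874%, 1.41% and 1.23% in the same order. Psmb10 replaces Psmb7, the trypsin-like site, and had a larger share, with medians of 24.6%, 23.6%, 21.1% and 20.5%. The Psmb8 and Psmb9 shares overlapped between all arms. The Psmb10 share ran from 22.5% to 27.5% in E3/3 vehicle and from 16.6% to 22.3% in E4/4 D4F libraries, which did not overlap, while every other pair of arms did. These shares were not tested, and they depend on the transcript lengths used, such as 1628 bases for Psmb8 and 899 bases for Psmb5.

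Levels of the 6 catalytic genes showed no called difference between the genotypes of vehicle mice. Psmb5 ran from 46.3 to 60.1 CPM (median 49.1) in E3/3 vehicle and from 47.2 to 58.6 CPM (median 52.6) in E4/4 vehicle libraries. Psmb6 ran from 83.6 to 138 CPM (median 102) and from 83.8 to 105 CPM (median 91.8), and Psmb7 from 83.5 to 100 CPM (median 90.5) and from 93.8 to 110 CPM (median 98.6). Ranges overlapped for each of them, and the highest Psmb6 value belonged to E3/3 female PBS replicate 1. Psmb8 lay between 3.49 and 7.57 CPM in E3/3 vehicle and between 4.17 and 6.54 CPM in E4/4 vehicle mice, Psmb9 between 0.817 and 3.81 CPM and between 1.57 and 2.78 CPM, and Psmb10 between 28.6 and 38.3 CPM and between 26.4 and 35.5 CPM. The E4/4 minus E3/3 log2 changes were 0.03 for Psmb5, -0.17 for Psmb6, 0.14 for Psmb7, 0.02 for Psmb8, 0.15 for Psmb9 and -0.12 for Psmb10. Their edgeR adjusted p-values spanned 0.0702 for Psmb7 to 0.963 for Psmb8. Without the 2 libraries that stood apart, Psmb7 was called (log2 0.17, edgeR adjusted p = 0.0161). The SE of 0.195 for Psmb9, the gene with the fewest counts, means that a difference of the size seen in other members was not detectable at this depth.

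**Figure D2:**
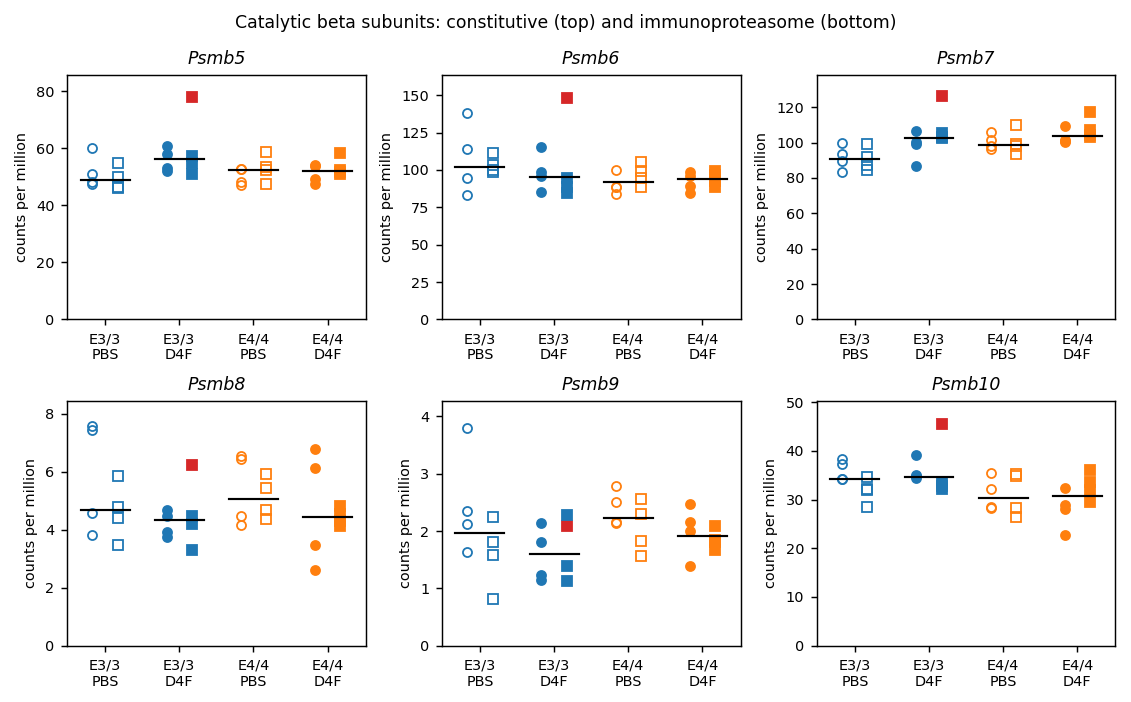
TMM-scaled CPM of the 6 catalytic beta subunit genes in each library by arm, with circles for females, squares for males, open symbols for PBS, filled symbols for D4F, blue for E3/3, orange for E4/4 and a bar at the median. E3/3 male D4F replicate 1, in red, is the highest library for Psmb5 (78.0), Psmb6 (149), Psmb7 (126) and Psmb10 (45.4).

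The comparison of E4/4 with E3/3 vehicle mice asked how these genes differ with APOE genotype without treatment. In E4/4 brains 7 of the 17 subunit genes of the 19S particle were lower, led by Psmd7 at 0.755-fold, while 2 of the 4 activators, 3 core genes, Psmd6 and Psmg2 were higher by 12.1% to 20.7%. In all, 17 of the 46 genes were called at an adjusted p below 0.05 (edgeR quasi-likelihood test, Benjamini-Hochberg adjustment over 20298 genes), 7 higher and 10 lower. Among all genes tested, 20.4% were called, 9.89% higher and 10.5% lower, and among the 15617 with at least 1 CPM, 25.4%. The median log2 change was -0.002 over the 46 genes and 0.017 over all genes. Summed over the 46 genes, libraries held a median of 3246 CPM where vehicle mice were E3/3 and 3171 CPM where they were E4/4.

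Among the 17 subunit genes of the 19S particle, 7 fell and 1 rose, and 14 had a log2 change below 0 (median -0.15). Summed 19S levels ran from 1732 to 1973 CPM (median 1827) in E3/3 vehicle and from 1548 to 1786 CPM (median 1665) in E4/4 vehicle libraries. The 14 constitutive 20S genes showed 3 higher and 2 lower calls and a median of 0.07, and their summed levels overlapped, from 973 to 1196 CPM (median 1042) in E3/3 and from 1008 to 1174 CPM (median 1075) in E4/4 vehicle mice. With GC and length trends removed, 16 of the 17 19S genes lay below 0 and 7 were called lower (median -0.15), with Psmd12 and Psmd14 in place of Psmc3 and Psmd2, whereas the 20S median moved to -0.03. With the depth class in the model 3 19S genes were called lower (median -0.07), and in the deeper libraries alone 0 were (median -0.09).

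Psmd7, which forms the lid heterodimer with the deubiquitinase Psmd14, lies on chromosome 8 at 107580381 to 107588464 (GRCm38, protein coding). It ranged from 108.1 to 129.4 CPM (median 122) in E3/3 vehicle mice and from 79.7 to 101.7 CPM (median 92.2) in E4/4 vehicle mice. Every E4/4 vehicle library was below every E3/3 vehicle library, which was true of no other member in the downward direction and of 0.695% of all genes tested, and no member was higher without overlap (0.325% of all genes). The log2 change was -0.41 (SE 0.0527, edgeR adjusted p = 2.7e-05), and it was -0.41 in females and -0.41 in males. It was called in each of the 16 fits that left out 1 vehicle library (log2 -0.43 to -0.37). Its partner Psmd14, the enzyme that removes ubiquitin chains, was not called, with medians of 71.96 and 73.9 CPM (log2 0.03, edgeR adjusted p = 0.679), but it was called lower with GC and length trends removed (log2 -0.19, edgeR adjusted p = 0.00865).

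Of the lid genes, 3 more were lower, by smaller amounts. Psmd3, a lid scaffold subunit, ranged from 128 to 176 CPM (median 148) in E3/3 vehicle and from 116 to 130 CPM (median 125) in E4/4 vehicle mice, overlapping only at the edge (log2 -0.27, SE 0.0547, edgeR adjusted p = 0.000982). Psmd8, the lid subunit that joins last in assembly, ranged from 84.1 to 112 CPM (median 94.3) and from 73.8 to 86.5 CPM (median 81.4), again with a small overlap (log2 -0.24, SE 0.0536, edgeR adjusted p = 0.00231). Psmd11, a lid subunit that contacts the core, ranged from 56.3 to 60.8 CPM (median 59.3) and from 48.3 to 58.1 CPM (median 52.6), so that E3/3 values were tightly grouped and most E4/4 values lay beneath them (log2 -0.17, SE 0.0446, edgeR adjusted p = 0.00858). These 3 genes stayed called whichever vehicle library was left out.

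Psmd2, the large base subunit that docks ubiquitin-like domains, had medians of 197 and 176 CPM (log2 -0.15, edgeR adjusted p = 0.0331) and was called in 4 of the 16 fits that left out 1 library. Of the ATPases, Psmc3 ranged from 147 to 178 CPM (median 159) in E3/3 vehicle and from 126 to 152 CPM (median 144) in E4/4 vehicle mice (log2 -0.19, SE 0.0578, edgeR adjusted p = 0.018). Psmc1, whose tail opens the core's gate, ranged from 126 to 142 CPM (median 137) and from 102 to 134 CPM (median 124) (log2 -0.16, SE 0.0527, edgeR adjusted p = 0.0292). Both ATPases overlapped between genotypes and kept their call in 12 and 8 of the 16 fits. The other ATPases, Psmc2, Psmc4, Psmc5 and Psmc6, had log2 changes from -0.14 to 0.04 and were not called.

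Psmd6 was the 1 19S gene that rose. This lid subunit ranged from 46.04 to 56.8 CPM (median 47.6) in E3/3 vehicle and from 54.6 to 59.0 CPM (median 56.95) in E4/4 vehicle mice, with the E4/4 libraries close together and most E3/3 libraries beneath them. The log2 change was 0.18 (SE 0.055, edgeR adjusted p = 0.0173), and the call held whichever library was left out. It was lost with GC and length trends removed (log2 0.11, edgeR adjusted p = 0.134) and with the depth class in the model (0.16, edgeR adjusted p = 0.12). Psmd1, Psmd4, Psmd12 and Psmd13, which are the second large base subunit, a ubiquitin receptor and a pair of lid subunits, had log2 changes from -0.15 to -0.06 and were not called.

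**Figure D3:**
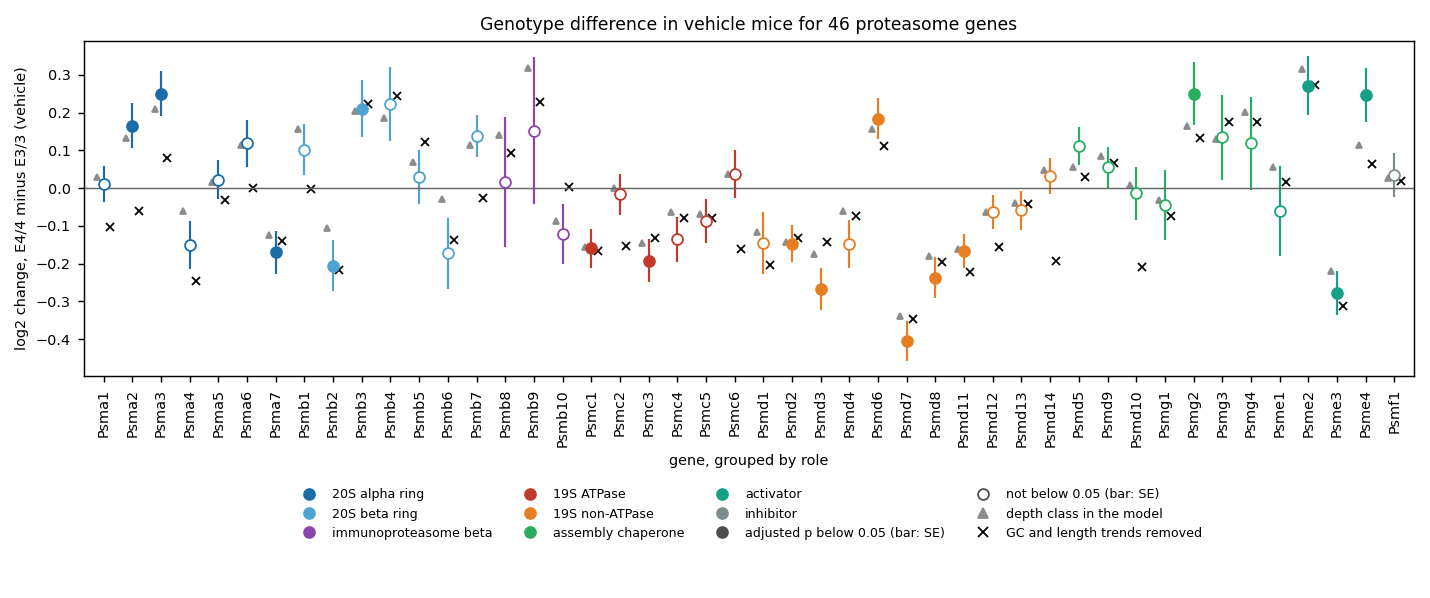
Log2 change of each of the 46 genes in E4/4 vehicle against E3/3 vehicle mice, ordered by role, with bars for the SE and filled circles for an adjusted p below 0.05. Triangles give the same change with the depth class in the model and crosses the change with GC and length trends removed. Psmd7 (-0.41) is lowest by all 3 estimates.

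In the 20S core the calls went both ways. Psma3 ranged from 56.1 to 78.3 CPM (median 64.9) in E3/3 vehicle and from 70.1 to 85.3 CPM (median 78.4) in E4/4 vehicle mice, overlapping in the middle (log2 0.25, SE 0.0597, edgeR adjusted p = 0.00357). Another alpha gene, Psma2, had medians of 73.6 and 83.2 CPM (log2 0.17, edgeR adjusted p = 0.045), and the beta gene Psmb3 medians of 46.5 and 55.9 CPM (log2 0.21, edgeR adjusted p = 0.0469). Lower in E4/4 were the alpha gene Psma7, with medians of 87.6 and 78.9 CPM (log2 -0.17, edgeR adjusted p = 0.0327), and the beta gene Psmb2. Psmb2 ranged from 53.0 to 76.5 CPM (median 61.4) in E3/3 and from 49.8 to 62.8 CPM (median 54.2) in E4/4 vehicle mice (log2 -0.21, SE 0.0679, edgeR adjusted p = 0.0293). All 5 overlapped between genotypes. Psma3 was called whichever library was left out, but not with GC and length trends removed (log2 0.08, edgeR adjusted p = 0.316) or with the depth class in the model (0.21, edgeR adjusted p = 0.0505). The other 4 were called in 6 or 7 of the 16 fits. Psma2 changed sign with GC and length trends removed (-0.06).

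The activators, which cap the core in place of the 19S particle, were split. Psme3, the nuclear activator, ranged from 95.0 to 124 CPM (median 109) in E3/3 vehicle and from 82.1 to 108.4 CPM (median 89.96) in E4/4 vehicle mice. All E4/4 vehicle libraries except female replicate 1 (108.4 CPM) lay below the lowest E3/3 vehicle library. Its log2 change was -0.28 (SE 0.0582, edgeR adjusted p = 0.00122). Psme4, a large activator linked to acetylated histones and spermatogenesis, ranged from 51.8 to 71.3 CPM (median 60.2) and from 62.0 to 79.8 CPM (median 72.9), with overlap (log2 0.25, SE 0.0708, edgeR adjusted p = 0.0135). Its change was 0.06 with GC and length trends removed (edgeR adjusted p = 0.49) and 0.11 with the depth class in the model (edgeR adjusted p = 0.264). The interferon-inducible pair Psme1 and Psme2, which form 1 ring together, differed in outcome. Psme2 ranged from 16.6 to 23.2 CPM (median 17.5) in E3/3 vehicle and from 18.8 to 25.3 CPM (median 21.5) in E4/4 vehicle mice. Apart from E3/3 female PBS replicate 1 (23.2 CPM), every E3/3 vehicle library was below every E4/4 vehicle library. The log2 change was 0.27 (SE 0.0787, edgeR adjusted p = 0.0144), and 0.34 without the libraries that stood apart. Psme1 ranged from 22.6 to 44.6 CPM (median 28.5) and from 20.7 to 34.2 CPM (median 30.7), with full overlap (log2 -0.06, SE 0.12, edgeR adjusted p = 0.764). Reads of Psme2 may be shared with its near copy Psme2b (mean 4.37 CPM, log2 0.04), so its separate value is uncertain.

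Psmf1, the inhibitor, ranged from 32.9 to 38.6 CPM (median 34.6) in E3/3 vehicle and from 31.3 to 40.7 CPM (median 36.1) in E4/4 vehicle mice (log2 0.04, SE 0.0574, edgeR adjusted p = 0.72). Of the chaperones, Psmg2, which pairs with Psmg1 to build the alpha ring, was called, with medians of 11.7 and 14.8 CPM (log2 0.25, SE 0.0843, edgeR adjusted p = 0.0334). It was called in 8 of the 16 fits that left out 1 library, and not with GC and length trends removed (log2 0.13, edgeR adjusted p = 0.236). Psmg1 itself had medians of 9.33 and 9.40 CPM. Psmg3 and Psmg4, the second core chaperone pair, and Psmd5, Psmd9 and Psmd10, which help to assemble the 19S base, had log2 changes from -0.01 to 0.13 and were not called.

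**Figure D4:**
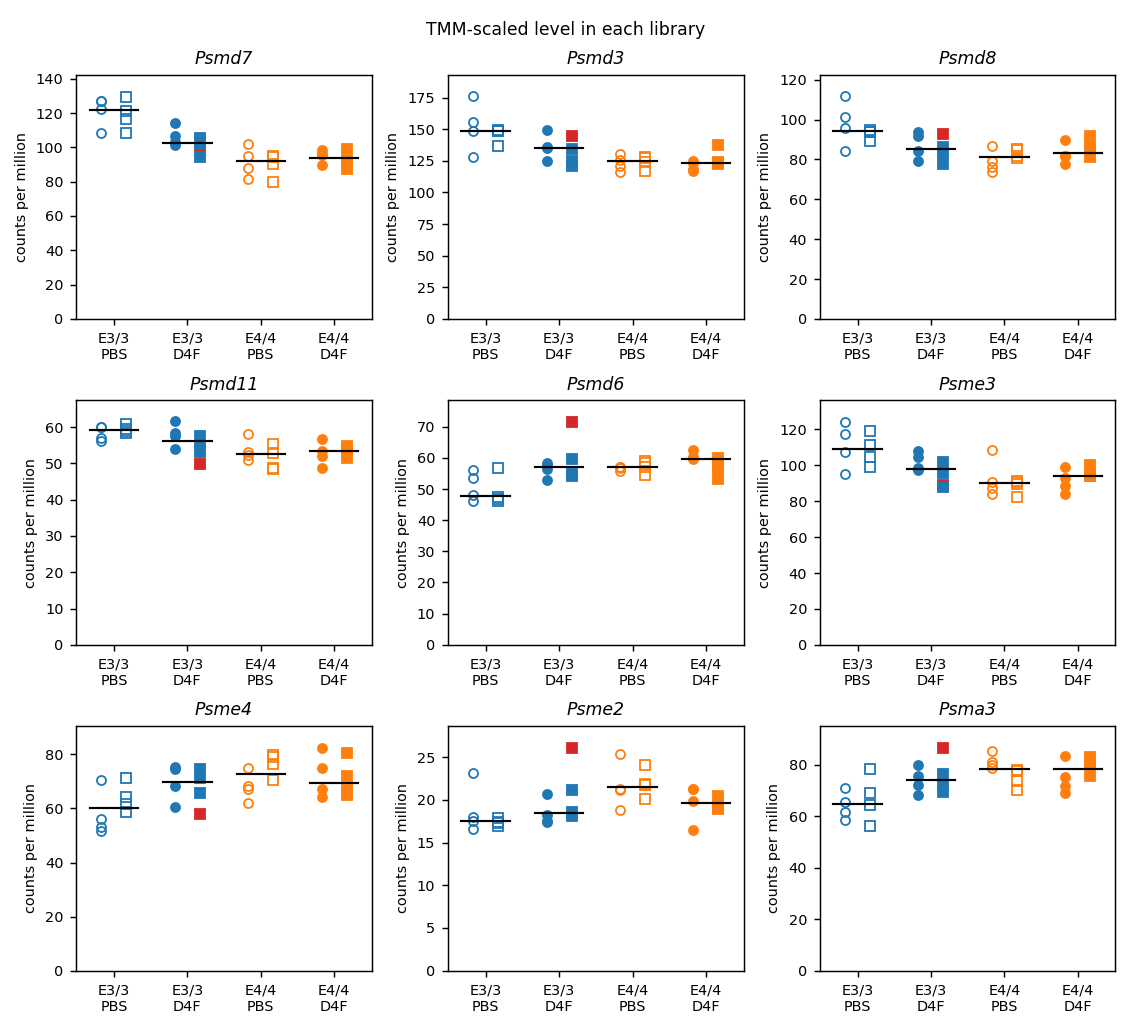
TMM-scaled CPM in each library for 9 genes with a genotype call in vehicle mice, by arm, with circles for females, squares for males, open symbols for PBS, filled symbols for D4F, blue for E3/3, orange for E4/4 and a bar at the median. For Psmd7 the median falls from 122 in E3/3 PBS to 103 in E3/3 D4F and stands at 92.2 and 93.6 in the E4/4 arms, and E3/3 male D4F replicate 1 (red) is highest of its arm for Psmd6, Psme2 and Psma3.

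Several measures moved with the genotype calls. The 7 higher genes had GC contents from 40.6% to 51.3% (median 45.5%) and the 10 lower genes from 47.1% to 56.5% (median 51.5%). With GC and length trends removed, 13 genes were called, 2 higher (Psmb3 and Psme2) and 11 lower. Of these 13, 9 were called without that step. The others, all lower, were Psma4 (log2 -0.25), Psmd10 (-0.21), Psmd12 (-0.16) and Psmd14 (-0.19). With the depth class in the model 5 were called: Psmd7 (log2 -0.34), Psme3 (-0.22), Psmd3 (-0.17) and Psmd11 (-0.16) lower and Psme2 (0.32) higher. These 5 were also called with GC and length trends removed. In the 21 deeper libraries alone, with 2 E3/3 vehicle libraries, none was called and Psmd7 had a log2 change of -0.27 (edgeR adjusted p = 0.125). Without both libraries that stood apart 18 were called, 11 higher and 7 lower, 14 of them among the 17. Lost were Psma7 (log2 -0.13), Psmb2 (-0.14) and Psmd2 (-0.12), with edgeR adjusted p from 0.0625 to 0.0821. Gained were Psma6 (0.15), Psmb1 (0.14), Psmb4 (0.27) and Psmb7 (0.17), all of the 20S core, with edgeR adjusted p from 0.0161 to 0.0498. Counts of calls fell to 9 without E3/3 female PBS replicate 3 or E4/4 female PBS replicate 3 and to 10 without E3/3 male PBS replicate 4. Among markers, 3 of 5 oligodendrocyte genes rose (sums of 3869 to 4868 CPM in E3/3 and 4464 to 5775 CPM in E4/4 vehicle mice) and all 5 blood genes fell (7.67 to 113 CPM and 3.66 to 15.01 CPM). Of 5 neuronal markers, 1 rose and 2 fell, with overlapping sums. The part of these marker shifts in the proteasome results was not tested.

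Within each sex the same contrast compared 4 with 4 mice. It was taken from the 1 fit on all 32 libraries, so its p-values rest on the spread over all 8 groups. In females, 5 members (10.9%) were called, against 10.3% of all genes and 13.05% of those with at least 1 CPM. Psmd7 (log2 -0.41), Psmd8 (-0.31), Psmd3 (-0.30) and Psme3 (-0.26) were lower, and Psma3 (0.34) was higher. That count was 2 without E3/3 female PBS replicate 1, 3 without E3/3 female PBS replicate 2 or 3 or E4/4 female PBS replicate 2 or 3, and 8 without E3/3 female PBS replicate 4. In males, 2 (4.35%) were called, Psmd7 (-0.41) and Psme3 (-0.29), against 3.97% of all genes and 5.0% of those with at least 1 CPM. Leaving out E3/3 male PBS replicate 1 or 4 or any of the 4 E4/4 male PBS libraries left 1, and leaving out E3/3 male PBS replicate 3 gave 4. Without both libraries that stood apart, neither of them a vehicle male, the fit across all groups called 7 members in males. Psmb3 (0.34), Psmd6 (0.23) and Psme2 (0.35) were then higher and Psmd3 (-0.22) and Psmd11 (-0.20) lower beside Psmd7 and Psme3. In females Psmd3 (-0.21) and Psme3 (-0.27) were then lost and Psme2 (0.33) gained. The difference between the sexes was called for 0 of the 46 genes by edgeR (0% of all genes), DESeq2 or limma-voom. At an unadjusted p below 0.05 there were 0 as well (5.37% of all genes), and the smallest p belonged to Psmc6 (log2 0.25, female minus male, SE 0.127, adjusted p = 0.907). Psmb3 (-0.23) and Psma3 (0.18) followed. Of the 46 genes, 37 had a female minus male difference below 0 (median -0.066), against 10286 of all 20298 genes (median -0.004). This lean was not tested. Between females and males over all 4 arms, edgeR called 0 of 46 members (0.0739% of all genes), 0 at an unadjusted p below 0.05 (5.47% of all genes) and 0 by DESeq2 and limma-voom, and the 3 smallest p-values were those of Psmg4 (log2 -0.15, female minus male), Psmc6 (-0.07) and Psmb9 (0.20).

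D4F in E4/4 mice asked whether the peptide altered these genes in the APOE4 background. It left 0 of 46 members called by edgeR (0% of all genes), with 1 member at an unadjusted p below 0.05 (1.88% of all genes), and 0 by DESeq2 and limma-voom. Psmd9, a 19S chaperone, was that member, with 29.2 to 32.9 CPM (median 31.2) under vehicle and 23.5 to 30.5 CPM (median 29.3) under D4F. It overlapped between treatments, and its lowest value came from E4/4 female D4F replicate 4 (log2 -0.11, SE 0.0538, edgeR adjusted p = 1.0). Psme2 ranged from 18.8 to 25.3 CPM under vehicle and from 16.4 to 21.3 CPM under D4F (log2 -0.16, SE 0.078). Psmd1 ranged from 57.4 to 92.5 CPM (median 70.0) and from 69.6 to 86.3 CPM (median 78.1). The median log2 change over the 46 genes was 0.02.

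D4F in E3/3 mice, the same question in the APOE3 background, gave 4 called members (8.7%), 3 higher and 1 lower. Of all genes 3.25% were called, 1.81% higher and 1.44% lower, and of those with at least 1 CPM 4.16% were called. Psmd7 ranged from 108.1 to 129.4 CPM (median 122) under vehicle and from 94.4 to 114 CPM (median 103) under D4F, an overlap of a few libraries (log2 -0.22, SE 0.0527, edgeR adjusted p = 0.0239). Psmd6 ranged from 46.04 to 56.8 CPM (median 47.6) and from 53.0 to 71.4 CPM (median 57.1) (log2 0.21, SE 0.0551, edgeR adjusted p = 0.0295). Psmb4, a non-catalytic beta subunit, ranged from 72.4 to 106 CPM (median 85.8) and from 87.5 to 164 CPM (median 112), with its highest value in E3/3 male D4F replicate 1 (log2 0.36, SE 0.0976, edgeR adjusted p = 0.0364). Psma2 had medians of 73.6 and 85.3 CPM (log2 0.21, SE 0.059, edgeR adjusted p = 0.0478). All 4 overlapped between treatments. Without E3/3 male D4F replicate 1 the count was 2, with Psmd7 (log2 -0.21) among them and Psmd6 (0.17), Psmb4 (0.28) and Psma2 (0.18) no longer called. It was 0 without both libraries that stood apart and 0 with the depth class in the model. With GC and length trends removed Psmd7 (log2 -0.17, edgeR adjusted p = 0.0739) and Psma2 (0.07, edgeR adjusted p = 0.653) were not called. Psmb4 (0.37, edgeR adjusted p = 0.0194) and Psmd6 (0.18, edgeR adjusted p = 0.0399) stayed called there, and Psmb5 (0.24, edgeR adjusted p = 0.0222) was gained. The number called was 0 without any 1 of 7 other libraries (E3/3 female PBS replicates 2 and 3, E3/3 male PBS replicates 1 and 4, and E3/3 female D4F replicates 1, 2 and 3). It was 1 without E3/3 male PBS replicate 2, 8 without E3/3 male PBS replicate 3 or E3/3 female D4F replicate 4, and 12 without E3/3 female PBS replicate 4.

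Whether D4F acted differently in the genotypes was tested as an interaction, which called 0 members by edgeR (0% of all genes), with 8 at an unadjusted p below 0.05 (10.4% of all genes) and 0 by DESeq2 and limma-voom. Leaving out E3/3 female PBS replicate 4 gave 1 call. Psmd7 had the smallest p, with a D4F effect that was 0.27 higher on the log2 scale in E4/4 than in E3/3 (SE 0.0745, edgeR adjusted p = 0.257). Its medians were 122 CPM in E3/3 vehicle, 103 CPM in E3/3 D4F, 92.2 CPM in E4/4 vehicle and 93.6 CPM in E4/4 D4F, so that both E4/4 arms lay at the low end and overlapped each other. Psmb4 (-0.39, SE 0.138) and Psmd8 (0.21, SE 0.0757) had the next smallest p-values, with edgeR adjusted p of 0.313 and 0.315.

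Between E4/4 and E3/3 mice that both received D4F, 0 members were called by edgeR (0.00493% of all genes), with 6 at an unadjusted p below 0.05 (13.8% of all genes) and 0 by DESeq2 and limma-voom. Psmb10 had the smallest p and ranged from 32.2 to 45.4 CPM (median 34.6) in E3/3 and from 22.8 to 36.1 CPM (median 30.8) in E4/4 D4F mice (log2 -0.24, SE 0.0791, edgeR adjusted p = 0.177). Psmc5 ranged from 168 to 218 CPM (median 175) and from 149 to 174 CPM (median 160) (log2 -0.17, SE 0.0576, edgeR adjusted p = 0.188). For Psmd7 the ranges were 94.4 to 114 CPM and 87.2 to 99.1 CPM (log2 -0.14, SE 0.0527, edgeR adjusted p = 0.234). All 3 overlapped.

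D4F-treated E4/4 mice were also set against vehicle E3/3 mice, which shows how far treated E4/4 brains lay from the untreated E3/3 level. Here 12 members (26.1%) were called, against 19.3% of all genes and 24.12% of those with at least 1 CPM. Of the 12, 6 were higher (9.54% of all genes) and 6 lower (9.8%). This comparison, the genotype comparison and D4F in E3/3 share the E3/3 vehicle libraries, so their values are set side by side only. Psmd7 ranged from 87.2 to 99.1 CPM (median 93.6) in treated E4/4 mice, below every E3/3 vehicle library (log2 -0.36, SE 0.0527, edgeR adjusted p = 8.8e-05), as did 1.31% of all genes. In the upward direction 2 members did not overlap (0.695% of all genes). Psmd5 ranged from 36.3 to 42.87 CPM in E3/3 vehicle and from 42.92 to 49.9 CPM in treated E4/4 mice, a gap of a few hundredths (log2 0.20, edgeR adjusted p = 0.00614). Psmb7 ranged from 83.5 to 99.97 CPM and from 100.2 to 117 CPM, also with adjoining ranges (log2 0.21, edgeR adjusted p = 0.00717). Psmd3 (log2 -0.27), Psmd6 (0.23), Psma3 (0.24) and Psme3 (-0.23) were called with edgeR adjusted p from 0.00125 to 0.0058. With the depth class in the model 5 of the calls held (Psmd7, Psmd3, Psmd6, Psma3 and Psmb7), and with GC and length trends removed 10 were called, 1 higher (Psmb3) and 9 lower. None of the 6 higher calls held there: Psmb7 had a log2 change of 0.04 (edgeR adjusted p = 0.673) and Psmd5 of 0.10 (edgeR adjusted p = 0.194). Without both libraries that stood apart 15 were called, 10 higher and 5 lower, with Psmd8 (-0.14) lost and Psma6 (0.16), Psmb1 (0.16), Psmb3 (0.25) and Psmb4 (0.24) gained.

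**Figure D5:**
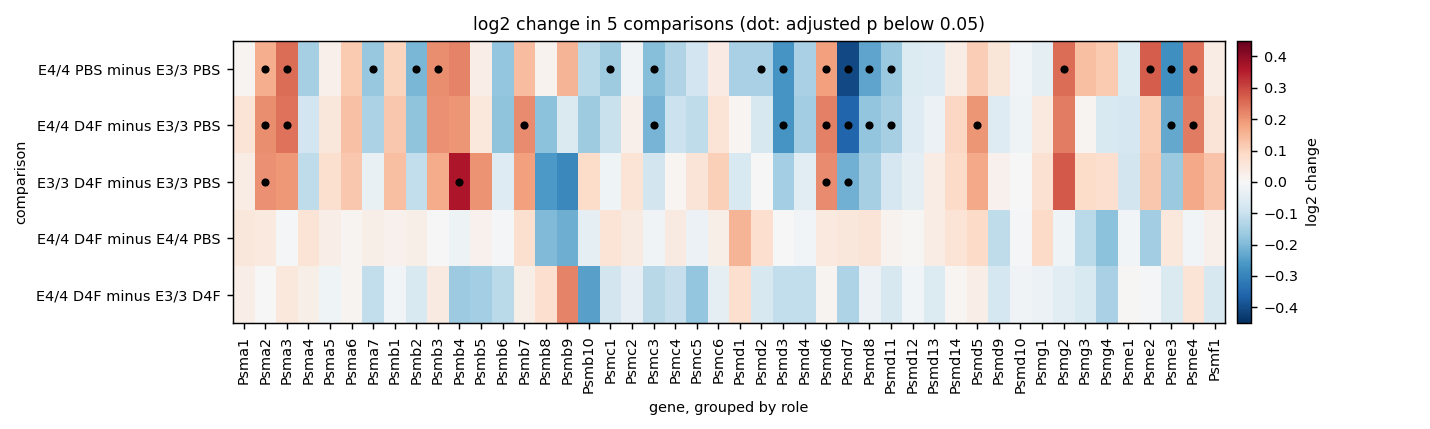
Log2 change of the 46 genes, ordered by role, in 5 comparisons of the arms, from blue (lower) to red (higher), with a dot for an adjusted p below 0.05. The upper 3 rows share the E3/3 PBS libraries, and the lower 2 rows, E4/4 D4F against E4/4 PBS and against E3/3 D4F, hold no dot.

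Other genes of the pathway were followed through 3 lists. Their values come from the edgeR fit on all 32 libraries, and no alternative setting was examined for them. Of 14 proteasome partners found among 15 listed, 4 rose and 2 fell in E4/4 vehicle mice. The ubiquitin receptor Adrm1 averaged 79.9 CPM in vehicle-treated E3/3 and 63.8 CPM in vehicle-treated E4/4 mice (log2 -0.33, edgeR adjusted p = 0.00252). Nfe2l1, the transcription factor that raises proteasome genes when the proteasome is inhibited, averaged 374 and 313 CPM (log2 -0.26, edgeR adjusted p = 0.0103). Zfand5, which stimulates the 26S complex, averaged 129 and 164 CPM (log2 0.35, edgeR adjusted p = 0.00294), and Akirin2, which brings proteasomes into the nucleus, 50.5 and 60.2 CPM (log2 0.25, edgeR adjusted p = 0.0191). Ecpas (log2 0.23), a proteasome scaffold, and Ngly1 (0.20), the enzyme that activates Nfe2l1, were the other higher genes. Under D4F in E3/3 mice 3 partners were called, all higher: Zfand5 (log2 0.38), Akirin2 (0.31) and Usp14 (0.34), the last a deubiquitinase of the 19S particle. Under D4F in E4/4 mice 0 were called by edgeR, and 0 had an unadjusted p below 0.05.

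Of 27 ubiquitin and shuttling genes, 2 rose and 7 fell in E4/4 vehicle mice. The shuttle Ubqln4 (log2 -0.27, edgeR adjusted p = 0.000577) and the ubiquitin-activating enzyme Uba1 (-0.26, edgeR adjusted p = 0.00448) fell. Also lower were Uchl1 (-0.32), Stub1 (-0.27), Usp5 (-0.20) and the autophagy receptor Sqstm1 (-0.17), while Uba6 (0.27), the other activating enzyme, and the shuttle Ubqln2 (0.19) rose. The 17 antigen-processing and interferon genes had a median log2 change of -0.06 in the same comparison. Under D4F in E3/3 mice 1 gene of that list was lower, Gbp2, an interferon-induced GTPase (log2 -0.67, edgeR adjusted p = 0.0256). Over all genes tested, the share called in the genotype comparison was 20.4% and in D4F in E3/3 3.25%.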

How the data were processed

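Brain RNA from 32 mice was sequenced from strand-keeping messenger RNA libraries, per the labels' protocols. The authors deposited raw counts per gene name. Per the submitters' processing notes these came from Trimmomatic, HISAT2, featureCounts and build GRCm38. Versions, annotation, strand setting and the unit counted (reads or pairs) were not given in the sources used here. It held 33 columns and 57010 entries, 150 of them repeated names, and each column was matched to its mouse by its library number.

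The tests used edgeR 4.0.16 under R 4.3.3. filterByExpr (minimum count 10, total 15) kept 20298 genes, all 46 members among them. After TMM scaling, robust quasi-likelihood models were fitted with 1 coefficient per group, and 10 contrasts averaging the sexes where apt were tested two-sided, with Benjamini-Hochberg adjustment over all genes and calls at adjusted p below 0.05. The pipeline was tested on simulated data that held no GC, length or depth-class trends, so that test says nothing about them. SE is that of the log2 change, CPM is TMM-scaled unless given per kb, and log values used a prior count of 2. P-values are for differences between group means, set against the spread between mice. Libraries of 17.8 to 45.1 M counts bound the precision of low genes such as Psmb9.

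Alternatives were DESeq2 1.42.0, RLE and upper quartile scaling, no filter, limma-voom (limma 3.58.1), the depth class (boundary 26 M) as a term, thinning to the smallest total, deeper libraries only, GC and length trends removed by splines (19173 genes, 94.5%), sex as an additive term, a replicate block, and each of 32 libraries left out. Leaving out both libraries that stood apart was chosen after seeing the data. Coordinates, lengths and GC came from GENCODE M21 on GRCm38. Promoters came from RefSeq, where 39 of the 46 members matched by symbol. A comparison of protein sequences was not run here.

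Named genes were the first 12 by p called between the vehicle genotypes, the 6 catalytic genes, the regulators, and, in every other contrast, up to 6 called or the 3 with the smallest p. Others named, such as the remaining called members, were chosen after their values were seen. Members and lists were chosen with earlier results of these data known. Some genes of the other pathway lists are not reported here.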

Additional observations from a re-analysis of the deposited data

Results flagged for a closer look

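A library stood clear of the other 7 of its arm, by Dixon's ratio, in 22 of 184 sets of 8 values (46 genes in 4 arms), where chance flags about 1 in 20 groups. Sets of 1 library are not independent of each other. Values are TMM-scaled CPM.

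Of these, 12 belonged to E3/3 male D4F replicate 1, a library of the lower depth class, each time as the highest of its arm. In the core they were Psma7 (103.6), Psmb1 (153.8), Psmb3 (76.12), Psmb4 (164.0) and Psmb5 (77.98). In the 19S particle they were the ATPases Psmc2 (113.9), Psmc4 (125.9) and Psmc5 (217.6) and the non-ATPase genes Psmd4 (140.4), Psmd6 (71.36) and Psmd13 (95.29). The activator Psme2 (26.01) was the last. The D4F calls of Psmb4 and Psmd6 in E3/3 mice were lost without that library.

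E3/3 female PBS replicate 1, also of the lower class, was highest for Psmb1 (114.2) and Psme2 (23.17). E4/4 female PBS replicate 1, the 1 shallower library of that arm, was highest for Psmd1 (92.51) and Psme3 (108.4). In the E4/4 D4F arm, male replicate 1 was highest for Psma5 (60.84) and Psmc3 (158.9), male replicate 2 (shallower) for Psmd3 (137.3) and female replicate 3 for Psmg2 (18.21), while female replicate 4 was lowest for Psmb1 (93.51) and Psmd9 (23.49).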

How the results depend on the processing

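The number of members called between the vehicle genotypes was 17. It moved to 10 with no filter on low counts, to 5 with the depth class in the model and to 0 in libraries above 26 M counts only. For D4F in E3/3 mice (4), it was 8 by DESeq2 and 0 with no filter, with the depth class, in deeper libraries only and without E3/3 female PBS 1 and E3/3 male D4F 1. For treated E4/4 against vehicle E3/3 mice (12), it was 5 with the depth class and 0 in deeper libraries. For vehicle females (5), it was 3 with the depth class, and 0 in deeper libraries and with GC and length trends removed. For vehicle males (2), it was 6 by DESeq2, 1 with no filter, 1 after thinning, 0 with the depth class, 0 in deeper libraries and 7 without the libraries that stood apart. Leaving out each library in turn gave 9 to 17, 0 to 12, 10 to 16, 2 to 8 and 1 to 4 calls for these comparisons, 0 to 1 for the genotype by D4F interaction, and 0 throughout for D4F in E4/4, genotype in D4F mice, sex and genotype by sex. The median log2 change of the members, genotype in vehicle mice, was -0.002, and -0.068 with GC and length trends removed. Psma2 reversed between the vehicle genotypes with GC and length trends removed (-0.061). The cause of these shifts was not tested.

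A replicate number did not pair the samples: same-numbered libraries of different groups correlated from -0.407 to 0.322 in their deviations. With the replicate number as a block, the vehicle genotype count was 17, that of treated E4/4 against vehicle E3/3 mice was 13, and that of vehicle males was 1.

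Depth limits the rarest genes, Psmb8, Psmb9, Psmg3 and Psmg4. With 2 deeper E3/3 vehicle libraries, genotype and depth cannot be told apart in full. Anything that went with the library number cannot be told apart from genotype at all.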
